A study of Rattus norvegicus with 48 samples.

Results

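Cyp1a1 (ENSRNOG00000019500) and Cyp1a2 (ENSRNOG00000016173) were followed through all doses of myclobutanil in rat liver and testis. These 2 genes of 32545 counted were chosen by their Ensembl IDs; the files give IDs without names and the reference table holds both symbols without Ensembl IDs, so it neither contradicted nor checked the names. Polyadenylated RNA was sequenced from adult male Sprague-Dawley rats (Crl:CD (SD)), aged 8 to 10 weeks at the start, gavaged once a day for 14 days. All groups received corn oil at 4 ml/kg: the vehicle group received it alone, and the others with 30, 150 or 400 mg/kg of myclobutanil, a triazole fungicide aimed at a sterol-synthesising cytochrome P450 of fungi. Each tissue had 6 libraries per group, with 31.8 to 49.1 M reads on genes per liver library and 30.9 to 49.2 M per testis library. In testis, the titles and doses of 2407 and 2408 place them with vehicle, where they were kept, but 1 of their labels names myclobutanil.

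Cyp1a1 and Cyp1a2 encode cytochrome P450 enzymes that oxidise planar aromatic compounds. Both genes are classic targets of the aryl hydrocarbon (Ah) receptor, a ligand-activated transcription factor that pairs with ARNT and binds xenobiotic response elements in DNA. Cyp1a2 is expressed constitutively in hepatocytes and contributes to caffeine and aromatic amine metabolism, while Cyp1a1 is kept low in untreated liver and is strongly inducible, which makes its transcript a common readout of Ah receptor activity. The genes are neighbours on rat chromosome 8, with 0 other genes between them in the RefSeq annotation of GRCr8. Which build the submitters aligned to is not known from the sources used here.

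The promoter of Cyp1a2 is shown to place the 2 motifs searched; the promoter table held Cyp1a2 and not Cyp1a1. This RefSeq window, GRCr8 chr8:66978100-66978399 on the minus strand, runs from 250 bases before the start of the gene to 50 bases after it. The capitals mark a match to the letters of the TATA box.
Cyp1a2: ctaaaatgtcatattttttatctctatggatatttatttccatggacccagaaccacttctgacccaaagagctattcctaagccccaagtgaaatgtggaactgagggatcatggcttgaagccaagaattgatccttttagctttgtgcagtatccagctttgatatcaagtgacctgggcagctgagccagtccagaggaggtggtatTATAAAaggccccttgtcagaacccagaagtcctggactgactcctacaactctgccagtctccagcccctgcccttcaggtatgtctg
The letters TATAAA begin 39 bases before the start, on the strand of the gene. They occur anywhere in 14.2% of 33469 rat promoter windows of the same 300 bases with either strand counted, and in 8.80% on the strand of the gene. The Ah receptor element core GCGTG was found 0 times on either strand of this window, and in 29.7% of all windows; the count covers these letters in this window only.

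Cyp1a1 was low in vehicle liver and rose at the top dose. Vehicle libraries had 0.189 CPM at the lowest, 0.526 at the median and 1.81 at the highest, from 6 to 63 reads (CPM, reads of a gene relative to all reads on genes in the library, scaled by TMM within liver). At 30 mg/kg the range was 0.353 to 1.76 CPM with a median of 1.27, and at 150 mg/kg it was 0.840 to 3.35 CPM with a median of 1.83. At 400 mg/kg it was 5.98 to 28.7 CPM with a median of 7.53, from 244 to 1325 reads. All 6 libraries at 400 mg/kg lay above every library of the other 3 groups, while vehicle, 30 and 150 mg/kg overlapped one another.

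**Figure D1:**
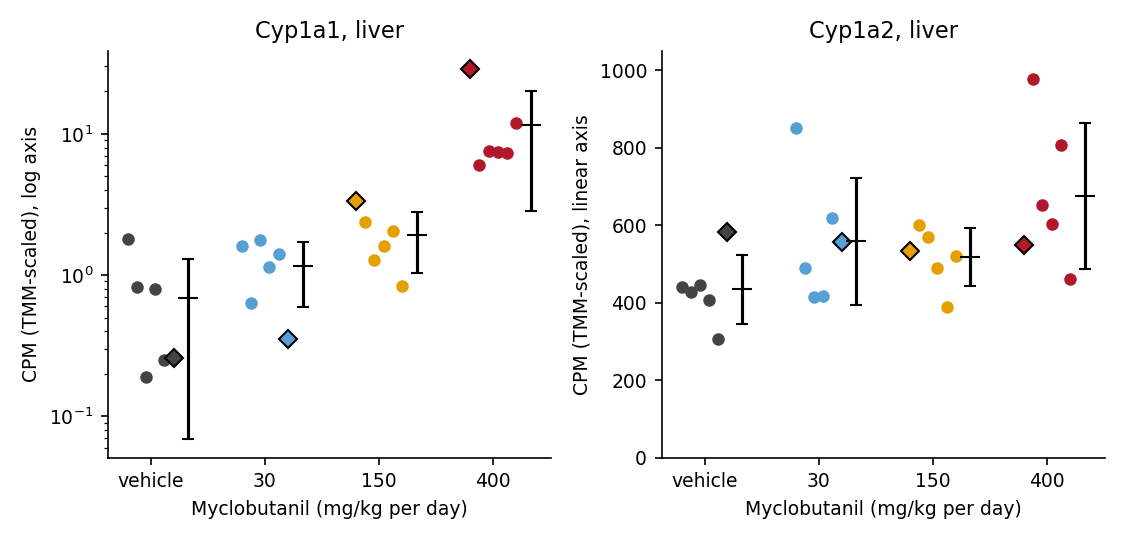
Each point is 1 liver library, placed by dose (mg/kg per day) and level (CPM, log axis for Cyp1a1 and linear axis for Cyp1a2); the bars are the mean ± SD of 6 libraries, and diamonds are the deeper library of each group (2408, 2414, 2415 and 2421). Cyp1a1 at 400 mg/kg sits at 5.98 to 28.7 CPM, apart from the other doses, while the Cyp1a2 groups overlap.

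Against vehicle, the mean of Cyp1a1 went from 0.688 ± 0.619 to 11.5 ± 8.66 CPM at 400 mg/kg (SD, n = 6). This was a 16.9-fold rise, 4.08 in log2 units (95% interval 2.97 to 5.19; adjusted p = 1.63e-05 in edgeR's quasi-likelihood test, threshold 0.05), with 6 of 6 treated libraries above the vehicle mean. By log2 fold change it ranked 10 from the top of the 13275 genes tested, of which 9.97% were called higher, and by edgeR p it ranked 108. Groups that did not overlap, with 400 mg/kg higher, were seen for 4.48% of the genes. A change in the number of cells of a type and a change in RNA per cell cannot be told apart in whole tissue. The labels do not name the animal behind a library, so the tests here weigh differences against the spread between libraries.

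At the lower doses Cyp1a1 did not pass the test, although at 150 mg/kg it passed in a fit with a term for the second of 3 inferred sequencing sets (log2 difference 2.68, edgeR adjusted p = 0.0318). That set held 5 libraries each of 150 and 400 mg/kg and none of the lower doses. The value with the term thus rests on 2415 and 2421, the libraries of the upper doses outside it. Without the third set the log2 difference of Cyp1a1 at 150 mg/kg from vehicle was 1.07 (edgeR adjusted p = 0.270). The mean was 1.92 ± 0.892 CPM at 150 mg/kg (SD, n = 6). Its log2 difference from vehicle was 1.5 (95% interval 0.39 to 2.61, edgeR adjusted p = 0.158), with 6 of 6 libraries above the vehicle mean, where 1.02% of genes were called higher. At 30 mg/kg the mean was 1.15 ± 0.558 CPM (SD, n = 6). The log2 difference there was 0.74 (95% interval -0.42 to 1.90, edgeR adjusted p = 0.976), with 4 of 6 above the vehicle mean, where 0.0151% of genes were called higher. The interval at 150 mg/kg ran from 1.31-fold to 6.10-fold and that at 30 mg/kg from 0.749-fold to 3.73-fold. A p above the threshold does not show a level equal to vehicle. These comparisons share the vehicle libraries.

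Between neighbouring doses, the step from 150 to 400 mg/kg was the one that passed. Cyp1a1 rose 5.97-fold over it, or 2.58 in log2 units (95% interval 1.58 to 3.57, edgeR adjusted p = 0.00423). It ranked 4 from the top of all genes tested by fold change and 65 by edgeR p, with 2.65% of genes called higher and 1.36% higher without overlap. From 30 to 150 mg/kg the log2 difference was 0.76 (95% interval -0.30 to 1.81, edgeR adjusted p = 0.570), where 0.113% of genes were called higher. It was 1.93 with the set term (edgeR adjusted p = 0.278) and 0.32 without the 4 libraries of the third set (edgeR adjusted p = 0.833). The means rose in the order vehicle, 30, 150 and 400 mg/kg, and neither the step from vehicle to 30 mg/kg nor that from 30 to 150 mg/kg passed the test.

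Cyp1a2 was abundant at every dose and rose 1.55-fold at the top dose. Vehicle libraries had 305 CPM at the lowest, 434 at the median and 582 at the highest, from 11009 to 29092 reads. The range was 416 to 851 CPM at 30 mg/kg with a median of 524, and 388 to 602 CPM at 150 mg/kg with a median of 528. At 400 mg/kg it was 462 to 977 CPM with a median of 628. The ranges of all 4 groups overlapped, although 4 of the 6 libraries at 400 mg/kg lay above the highest vehicle library.

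The mean of Cyp1a2 rose from 435 ± 88.8 to 675 ± 187 CPM at 400 mg/kg (SD, n = 6). In log2 units the rise was 0.64 (95% interval 0.25 to 1.02, edgeR adjusted p = 0.0183), with 6 of 6 libraries above the vehicle mean. Among the 1324 genes called higher it ranked 308 by fold change. The call ended without 400 mg/kg library 2422, the highest at 977 CPM, where the log2 value was 0.50 (edgeR adjusted p = 0.0526), and with the term for the second sequencing set (0.52, edgeR adjusted p = 0.296).

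The other Cyp1a2 differences did not pass the test. Its mean was 559 ± 164 CPM at 30 mg/kg (SD, n = 6), which differed from vehicle by 0.36 in log2 units (95% interval -0.02 to 0.74, edgeR adjusted p = 0.957). At 150 mg/kg the mean was 517 ± 74.3 CPM (SD, n = 6), with a log2 difference of 0.25 (95% interval -0.13 to 0.63, edgeR adjusted p = 0.546). The log2 difference was -0.11 from 30 to 150 mg/kg (95% interval -0.49 to 0.27, edgeR adjusted p = 0.848) and 0.38 from 150 to 400 mg/kg (95% interval 0.0034 to 0.765, unadjusted p = 0.0481, edgeR adjusted p = 0.234). The interval of that last step lay above 0, and its p did not pass after adjustment over all genes. The means rose in the order vehicle, 150, 30 and 400 mg/kg.

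**Figure D2:**
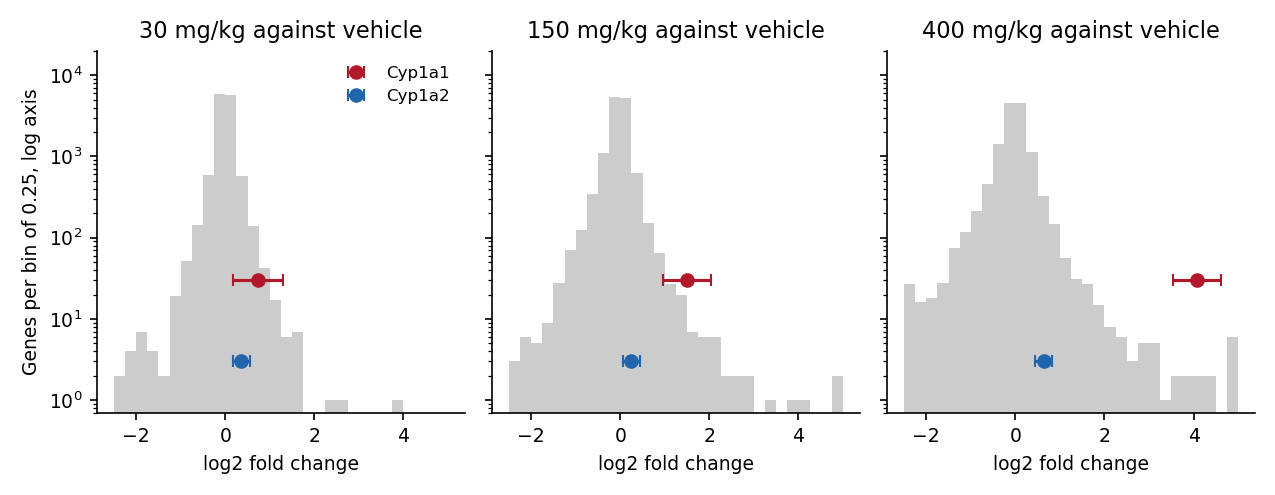
Grey bars count the 13275 liver genes tested by log2 fold change against vehicle (bins of 0.25, log axis; the outermost bins also hold genes beyond them), and the points give Cyp1a1 and Cyp1a2 with the SE as error bar, at heights chosen for legibility. Cyp1a1 stands at 0.74, 1.5 and 4.08 with rising dose, ranked 77, 31 and 10 from the top of all genes tested by fold change. By edgeR p it ranked 2680, 878 and 108. Its differences at 30 and 150 mg/kg did not pass the test. Cyp1a2 stands at 0.36, 0.25 and 0.64, of which only the last passed the test.

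The 2 genes differed in how far they responded. In vehicle libraries the reads of Cyp1a1 were 0.0425% of those of Cyp1a2 at the lowest, 0.137% at the median and 0.412% at the highest. At 400 mg/kg the shares were 0.612%, 1.20% and 5.23%, all above every vehicle share. These are ratios of reads, not per length, so that their change between doses is read and not their size.

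The log2 ratio of Cyp1a1 to Cyp1a2 reads averaged -9.70 ± 1.28 over the vehicle libraries and -6.07 ± 1.12 over those at 400 mg/kg (SD, n = 6). The rise of 3.63 had an exact permutation p of 0.00216, the smallest possible with 6 against 6 libraries, 2-sided, and 0.0108 after adjustment over 5 comparisons. Without the third set it was 2.997 (exact permutation p = 0.00794, adjusted 0.0198). From 150 mg/kg, at -8.19 ± 0.741 (SD, n = 6), to 400 mg/kg the ratio rose by 2.12 (exact permutation p = 0.00433, adjusted 0.0108). Of the libraries at 400 mg/kg, 6 of 6 lay above the 150 mg/kg mean and 5 of 6 above every 150 mg/kg library. Cyp1a1 thus rose further than Cyp1a2 over both of these comparisons. From vehicle to 150 mg/kg the difference was 1.52 (exact permutation p = 0.0390, adjusted 0.0649). It passed the threshold when vehicle 2403 or 150 mg/kg 2420 was left out (adjusted exact permutation p = 0.0289 and 0.0433). With any other single library left out it did not pass, with an adjusted exact permutation p of up to 0.130. Without the third set the difference was 1.07 (exact permutation p = 0.143, adjusted 0.238). The differences from vehicle to 30 mg/kg, 0.65, and from 30 to 150 mg/kg, 0.87, did not pass (exact permutation, adjusted p = 0.342 and 0.133).

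**Figure D3:**
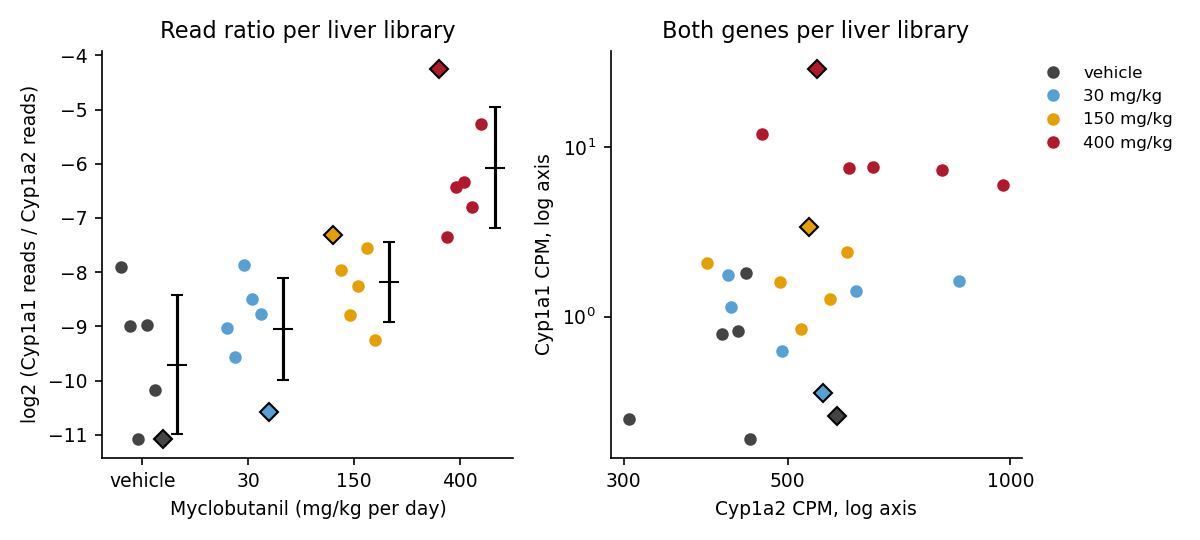
The left panel gives the log2 ratio of Cyp1a1 to Cyp1a2 reads in each liver library by dose, with the mean ± SD of 6, and the right panel the CPM of both genes in each library (log axes); diamonds are the deeper library of each group. The ratio goes from -9.70 with vehicle to -6.07 at 400 mg/kg, and within 400 mg/kg the library highest in Cyp1a2 is the lowest in Cyp1a1.

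Within a dose group no relation between the 2 genes passed the adjusted threshold. Pearson's r of log2 CPM over 6 libraries was 0.00869 with vehicle, 0.109 at 30 mg/kg and -0.0325 at 150 mg/kg, and Spearman's rho was -0.0857, -0.0857 and 0.200 (exact permutation p of 0.714 or above for each). At 400 mg/kg r was -0.640 (exact permutation p = 0.150, adjusted 0.6 over 4 groups) and rho was -0.886 (exact permutation p = 0.0333, adjusted 0.133). Without the 2 libraries farthest from the Cyp1a2 median, r at 400 mg/kg was -0.683 over the remaining 4. Library 2422 had the highest Cyp1a2 of the group, 977 CPM, and the lowest Cyp1a1, 5.98 CPM.

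Cyp1a1 varied widely between libraries of a group. Its coefficient of variation was 90.0% with vehicle, 48.5% at 30 mg/kg, 46.5% at 150 mg/kg and 75.4% at 400 mg/kg, against a median over all tested genes of 12% to 12.5%. The value at 400 mg/kg rested on library 2421, without which it was 28.2%. In vehicle liver the reads ran from 6 in library 2405 (95% Poisson interval 2.20 to 13.1) to 63 in library 2403 (48.4 to 80.6). The edgeR estimate of biological variation was 58.9% for Cyp1a1, where the trend at its abundance gave 21.5%. Cyp1a2 had 22.3% against a trend of 14.9%, with group coefficients of variation of 14.4% to 29.3%. Its highest, at 30 mg/kg, was 17.7% without library 2409, and its lowest, at 150 mg/kg, was 8.04% without library 2419.

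The libraries also differ in depth and mapping quality in a way that partly follows dose. In testis those values divided the libraries into 3 inferred sequencing sets, which were carried to liver by title number. In each tissue, 5 libraries each of vehicle and 30 mg/kg form the first and 5 each of 150 and 400 mg/kg the second. The third holds 1 deeper library per dose (2408, 2414, 2415 and 2421). In liver, reads of low mapping quality did not separate the first and second sets. Their number equalled 3.81% to 4.18% of the reads on genes in the first and 3.88% to 4.31% in the second. The reads on genes did separate the liver sets, at 31.8 to 37.0 M, 38.5 to 41.6 M and 45.0 to 49.1 M from the first to the third. Whether the sets were sequenced apart was not tested. In the third set, Cyp1a1 was at 0.260, 0.353, 3.35 and 28.7 CPM from vehicle to 400 mg/kg, and Cyp1a2 at 582, 557, 534 and 548 CPM. Cyp1a1 was thus higher at the 2 upper doses within this set, with 1 library each and no test, while Cyp1a2 was no higher. Within the second set the Cyp1a1 step from 150 to 400 mg/kg was 2.30 in log2 units (SE 0.27, edgeR adjusted p = 0.00509), and that of Cyp1a2 was 0.45 (adjusted p = 0.251). Within the first set the log2 fold changes from vehicle to 30 mg/kg were 0.75 for Cyp1a1 (adjusted p = 0.952) and 0.47 for Cyp1a2 (adjusted p = 0.930). For 400 mg/kg against vehicle, Cyp1a1 had a log2 fold change of 5.12 with a term for the second set against the other 2 (edgeR adjusted p = 2.38e-06). That value rests on 2415 and 2421, the 2 libraries of the upper doses outside the second set. Without the third set the log2 fold change of Cyp1a1 was 3.37 (edgeR adjusted p = 4.87e-05).

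Among 11288 other genes tested in liver with a mean of at least 1 CPM, the one most like Cyp1a1 over the 24 liver libraries was ENSRNOG00000015912, at a Pearson r of 0.902 of log2 CPM. Its level was 25.2 ± 1.99 CPM in vehicle liver and 40.6 ± 7.71 CPM after 400 mg/kg (SD, n = 6). The most opposite was ENSRNOG00000029993, at an r of -0.882, with 374 ± 28.1 CPM falling to 235 ± 26.9 CPM (SD, n = 6). Cyp1a2 had no gene above 0.8: the highest was ENSRNOG00000020776 at 0.739 and the lowest ENSRNOG00000016152 at -0.770. Cyp1a1 and Cyp1a2 correlated with each other at 0.425, which placed Cyp1a2 at rank 1739 among the genes by likeness to Cyp1a1. All these values share the dose groups and the sequencing sets.

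In testis the 2 genes were all but undetected. Over 24 libraries and 866 M reads on genes, Cyp1a1 had 1 read, in a 30 mg/kg library, and Cyp1a2 had 1 read, in a 150 mg/kg library. All 6 vehicle and all 6 400 mg/kg libraries had 0 reads of either gene, which allows up to 0.0142 and 0.0144 CPM over the group (3 reads). Vehicle liver, at 0.661 CPM pooled for Cyp1a1 and 442 CPM for Cyp1a2, was at least 46.4-fold and at least 31043-fold higher. The bound for Cyp1a1 was 26.7-fold without title number 2403 in both tissues. At 400 mg/kg liver was at least 860-fold higher for Cyp1a1 and at least 49106-fold higher for Cyp1a2. Without title number 2421, which held 1325 of its reads there, the bound for Cyp1a1 was 467-fold. Such limits cover the counting error in testis only, with liver taken at its pooled value. With the upper end of the 95% Poisson interval in place of 3 reads, the vehicle bounds were 37.7-fold for Cyp1a1 and 25246-fold for Cyp1a2. Those at 400 mg/kg were then 699-fold and 39936-fold.

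An edgeR fit of all 48 libraries gave an adjusted p of 9.06e-07 for Cyp1a1 and 2.83e-25 for Cyp1a2, liver against testis with vehicle. In that fit 38.9% of 18221 genes were called higher in liver. Both genes entered it through their liver reads and had 0 reads in vehicle testis. These p-values therefore add nothing to the bounds above. Neither gene passed the filter on low counts in testis, and a change below these limits was not detectable at this depth. With 0 reads in both testis groups there is no testis value to set against the liver effect of 400 mg/kg, so that no difference between the tissues in that effect is given; 8.36% of all genes were called for such a difference, in either direction.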

How the data were processed

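Each deposited file gives, for 1 library, the whole-number count of reads for every Ensembl rat gene, with no normalisation. CASAVA 1.8, HISAT2 and HTSeq 0.6.1 are named in the submitters' processing notes, with build, annotation and strand setting not given in the sources used here. Per the labels' protocols the libraries came from a stranded mRNA kit. Lines of no gene, 5 in each file, were left out (39.8% to 46.1% of liver reads, 34.9% to 36.9% of testis reads); reads with several alignments were counted for no gene, and these paralogous genes could lose reads that way.

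Groups came from the sample titles. The 24 liver libraries were tested in 1 fit of 4 dose means (R 4.3.3, edgeR 4.0.16: TMM, filterByExpr, robust quasi-likelihood, 2-sided, Benjamini-Hochberg over 13275 genes); the tissues were compared in a fit of all 48. SEs were computed from log2 fold change and F. Read ratios, with 0.5 added to each count, used exact permutation tests in SciPy 1.17.1. Named genes were the 2 members and, by ID for want of symbols, those with the highest and the lowest correlation with each. The correlation was Pearson's r of log2 CPM with a prior count of 2. Sequencing sets were inferred from reads on genes and low mapping quality in testis, since the labels name no batch. Other filters, subsets of libraries, RLE scaling, limma-voom 3.58.1 and DESeq2 1.42.0 served as alternatives. Leaving out the third set in the edgeR fits, and single libraries for coefficients of variation and tissue bounds, was chosen after seeing the data. The steps were tested on simulated data. The members, lists and tests were chosen with earlier results of these data known. Of 12 Ah receptor pathway genes and 15 tissue markers fixed by symbol, 0 could be paired with an ID, so they are not given and the tissue labels were not checked by markers.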

Additional observations from a re-analysis of the deposited data

Results flagged for a closer look

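Dixon's rule was applied in 12 tests (Cyp1a1 CPM, Cyp1a2 CPM and their log2 read ratio in each of the 4 liver groups). It marked 1 library, for Cyp1a1 CPM, that stood apart from the other 5. Chance marks about 1 in 20 where values follow a normal distribution, and the CPM were not in log2 units. The log2 read ratio of that library was not marked. Cyp1a1 was at 28.7 CPM in liver library 2421 of the 400 mg/kg group, and the other 5 libraries had 5.98 to 12 CPM. Cyp1a2 in the same library was at 548 CPM, inside the range of its group. Library 2421 is also the deepest of its group, and the part of depth in its Cyp1a1 level was not tested. Without it, the log2 fold change of Cyp1a1 at 400 mg/kg was 3.56 against vehicle (SE 0.47, edgeR adjusted p = 2.79e-05) and 2.06 against 150 mg/kg (SE 0.43, edgeR adjusted p = 0.0104).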

How the results depend on the processing

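Across the 5 liver comparisons of both genes, 210 alternative values kept the direction and the side of the threshold, 2 lost a call, 1 gained one and 1 reversed. With a term for the second sequencing set against the other 2 sets, Cyp1a1 at 150 mg/kg against vehicle was called (log2 2.68, adjusted p = 0.0318), a value that rests on 2415 and 2421, the 2 libraries of the upper doses outside that set, and Cyp1a2 at 400 mg/kg was not (0.52, adjusted p = 0.296). Leaving out 1 library gave 0.50 to 0.74 for Cyp1a2 at 400 mg/kg against vehicle, and -0.18 to 0.05 from 30 to 150 mg/kg, where it reversed without 2409 (0.0525). For the log2 read ratio at 150 mg/kg against vehicle, these fits gave 1.24 to 1.88. Differences between tissues in a dose effect rest on 0 or 1 testis reads and are no estimates: without 1 title number they went from -0.61 to 0.86 for Cyp1a1 at 30 mg/kg and from -0.96 to 0.27 for Cyp1a2 at 150 mg/kg, and DESeq2 gave 4.07 for Cyp1a1 at 400 mg/kg (adjusted p = 0.0409), from 0 testis reads in both groups. Fits with no filter in testis compared 0 with 0 or 1 reads and say nothing of a dose effect. With a replicate block on the title number, the fitted liver minus testis value with vehicle was 8.01 for Cyp1a1 and 17.4 for Cyp1a2, which depend on the prior count since testis had 0 reads, and it changed no call of either gene; the labels do not tie a number to an animal, deviations of same-numbered libraries correlated at 0.0766 to 0.196, and 24 of 24 liver libraries were closest to their own number. The number of genes called in either direction for the step from 150 to 400 mg/kg was 664, or 418 without a filter, 288 with only the 12 libraries compared, 68 within the second set, 393 without the third set, 398 to 436 without 2415, 2418 or 2423 and 1051 by DESeq2; at 150 mg/kg it was 198, or 72 with the set term, 499 by DESeq2 and 104 to 116 without 1 of 6 libraries (2403, 2404, 2408, 2416, 2418 or 2419); at 400 mg/kg it was 2608, or 921 with the set term. At 30 mg/kg it was 2, or 4 or 5 under 5 settings and 21 by DESeq2, and from 30 to 150 mg/kg it was 20, or 11 to 119 (42 without 2409, 12 without 2419, 119 by DESeq2). The cause of these moves was not tested.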
